A study of Homo sapiens with 4 samples.

Results

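MicroRNA precursor genes were examined in Hap1 cells that lack Baz2B and in their parental line. The set holds every gene whose symbol on the array begins with MIR and a number. MicroRNA host genes and genes with let-7 in their symbol were left out, by symbol only, so that MIR98 is a member. Probe sets were kept where the log2 intensity was above 3.5 on at least 2 of the 4 arrays. The array named 1226 probe sets of 1062 such genes, and 450 probe sets of 378 genes were retained, out of 11235 named probe sets of 10473 genes retained in all. Of the 776 that were not retained, 740 were not above the limit on any of the arrays. The members were chosen by these intensities, so that their levels are a description. MIR1249 was singled out with its difference already known, and its values are a description too.

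Total RNA was hybridised to Affymetrix Human Gene 2.0 ST arrays, whose probes lie along the length of transcripts, in Baz2B-KO (2 arrays) and in the Hap1 parental control (2 arrays). Hap1 is a near-haploid human line derived from KBM-7, a line of a chronic myeloid leukaemia. Baz2B-KO is a purchased Hap1 clone in which CRISPR/Cas9 removed 16 bp from a coding exon of BAZ2B, the gene of a regulatory subunit of the ISWI chromatin remodellers, and the parental control carries no such deletion. Both lines were grown in IMDM with 10% FCS, were handled separately and were trypsinized before lysis. With 1 edited clone against 1 parental line, the loss of Baz2B and other differences between the clones cannot be told apart. No named probe set of BAZ2B was analysed here. Of the 5 blood markers named on the array 2 were above the limit, GATA1 and SPI1, at a mean log2 intensity of 4.71 and 4.37. All of the 5 named markers of adherent cells were above it (VIM, KRT8, KRT18, FN1 and EPCAM, mean log2 intensity between 5.06 and 7.70). Neither list held a call between the lines.

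A microRNA gene is transcribed by RNA polymerase II as a long primary transcript. The nuclear enzyme Drosha and its partner DGCR8 cut the hairpin out of it, exportin 5 carries the hairpin to the cytoplasm, Dicer trims it to a short duplex, and an Argonaute protein keeps one strand. The mature strand pairs with messenger RNAs mainly through its seed, bases 2 to 8 from its 5′ end, and lowers their translation and stability. Many microRNA genes lie inside longer genes and are made from the host's transcript, and others form clusters that share a primary transcript. A probe set on a microRNA gene reads the hairpin stretch in whatever RNA holds it, the primary transcript, a precursor or the transcript of a host, and the mature microRNA was not measured.

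The RefSeq tables of GRCh38.p14 held all 378 symbols, a hairpin for 309 of the genes and 440 mature sequences for 301. Sequences are written 5′ to 3′ with the seed in capitals. First come the mature products of the 2 called genes that the table holds, MIR1249 and MIR194-2.
hsa-miR-1249-3p: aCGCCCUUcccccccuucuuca
hsa-miR-1249-5p: aGGAGGGAggagaugggccaaguu
hsa-miR-194-5p: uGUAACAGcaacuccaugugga
hsa-miR-194-3p: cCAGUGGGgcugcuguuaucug

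The products of other genes with large differences follow, to show the range of their base composition.
hsa-miR-3928-3p: gGAGGAACcuuggagcuucggc
hsa-miR-328-3p: cUGGCCCUcucugcccuuccgu
hsa-miR-4521: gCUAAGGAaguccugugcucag
hsa-miR-3163: uAUAAAAUgagggcaguaagac

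Products of the chromosome 14q32 cluster are shown because several of its genes were higher in Baz2B-KO on both arrays, and no 2 of the 4 share a seed.
hsa-miR-2392: uAGGAUGGgggugagaggug
hsa-miR-665: aCCAGGAGgcugaggccccu
hsa-miR-127-3p: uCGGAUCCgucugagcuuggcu
hsa-miR-134-5p: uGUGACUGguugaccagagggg

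The last 2 sets are seed families, each with 1 seed in common, AGUGCAA in the first 4 sequences and AGCAGCA in the other 3. None of their genes was called.
hsa-miR-130b-3p: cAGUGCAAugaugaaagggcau
hsa-miR-3666: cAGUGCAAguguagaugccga
hsa-miR-4295: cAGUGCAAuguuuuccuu
hsa-miR-454-3p: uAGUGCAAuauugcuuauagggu
hsa-miR-15a-5p: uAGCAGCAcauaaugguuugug
hsa-miR-424-5p: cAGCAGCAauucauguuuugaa
hsa-miR-497-5p: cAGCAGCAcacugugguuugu

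In Baz2B-KO 2 microRNA precursor genes were called higher than in the control, MIR1249 and MIR3135B, and 1 was called lower, MIR194-2. A call is an adjusted p under 0.05 from limma's moderated test of Baz2B-KO minus control, with Benjamini-Hochberg adjustment over all 11235 retained probe sets. The other 447 member probe sets were not called. The 3 calls are 0.667% of the members, against 0.668% called over all retained probe sets (0.276% higher and 0.392% lower), so that the share of called members is at the background. That count includes MIR1249, which was singled out beforehand and was above the limit in Baz2B-KO only. Of the 441 members above the limit on at least 1 array of each line, 0.454% were called in the same fit. Of the 450 differences, 249 were above 0 and their median was 0.04 on the log2 scale, with quartiles of -0.15 and 0.19 and extremes of -1.18 and 1.27. Over all retained probe sets the median was 0.02, with quartiles of -0.09 and 0.12.

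MIR1249 gave log2 intensities of 4.34 and 4.72 in Baz2B-KO, against 3.38 and 3.15 in the control. Both Baz2B-KO arrays were above the limit and both control arrays below it, so that the gene entered the set through Baz2B-KO alone. The log2 fold change was 1.27 (SE 0.158, limma adjusted p = 0.0191), a 2.41-fold difference, and the call was lost when either control array was left out, or the second Baz2B-KO array. It was also lost over all retained probe sets, named or not (adjusted p = 0.203), with no intensity limit (adjusted p = 0.0507) and with the replicate number as a block (adjusted p = 0.0790). The fold is that of the summarised intensity, with the control near the background.

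The hairpin of MIR1249 lies at chr22:45200954-45201019 on the minus strand (GRCh38.p14), within the span of KIAA0930 and on its strand. It is 66 bases long with a GC content of 65.2%, and both mature arms are in capitals in the sequence.
MIR1249 hairpin: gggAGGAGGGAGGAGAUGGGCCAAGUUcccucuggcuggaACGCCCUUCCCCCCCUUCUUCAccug
The host KIAA0930 gave 6.61 and 6.54 in Baz2B-KO, against 6.26 and 6.52 in the control. Its arrays did not overlap, but the second control array was just below the lower Baz2B-KO array. Its log2 fold change was 0.19 (SE 0.127, limma adjusted p = 0.735), which was not called, so that the nested gene and its host had differences of unlike size.

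MIR3135B is covered by several probe sets. The called one gave 5.42 and 5.73 in Baz2B-KO, against 4.73 and 4.39 in the control, with a log2 fold change of 1.02 (SE 0.161, limma adjusted p = 0.0497). A further 4 probe sets of the gene hold 1 identical row of values, 5.37 and 5.22 in Baz2B-KO and 4.97 and 4.34 in the control. On both rows the Baz2B-KO arrays were above the control arrays, and the second row, at 0.64 (adjusted p = 0.348), was not called. The mean over the gene's probe sets, in which the identical row counts 4 times, was 0.71 higher in Baz2B-KO (limma adjusted p = 0.220). The call thus rests on 1 of its probe sets, and it was lost without any one of the 4 arrays. It was lost too over all retained probe sets, named or not (adjusted p = 0.326), with no intensity limit (adjusted p = 0.109), with a limit of 3 (adjusted p = 0.0664), with the replicate block (adjusted p = 0.138), after a second quantile normalization (adjusted p = 0.0587) or cyclic loess (adjusted p = 0.0508), and with the limit met in both lines (adjusted p = 0.0626).

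MIR194-2, whose product miR-194 is one of the microRNAs raised by p53 and is abundant in liver and intestine, was the called fall. It gave 3.76 and 3.89 in Baz2B-KO, against 4.50 and 4.58 in the control. All of these arrays were above the limit, and the groups were further apart than either pair. The log2 fold change was -0.72 (SE 0.113, limma adjusted p = 0.0495), which lies just inside the threshold, and the call was lost without any one of the 4 arrays. Other losses were over all retained probe sets, named or not (adjusted p = 0.275), with no intensity limit (adjusted p = 0.104), with a limit of 3 (adjusted p = 0.0651), with an intensity trend in the prior (adjusted p = 0.0732), with the replicate block (adjusted p = 0.0865) and with the limit met in both lines (adjusted p = 0.0626). Its hairpin at chr11:64891355-64891439 on the minus strand is 85 bases long with a GC content of 62.4%, with the mature arms in capitals.
MIR194-2 hairpin: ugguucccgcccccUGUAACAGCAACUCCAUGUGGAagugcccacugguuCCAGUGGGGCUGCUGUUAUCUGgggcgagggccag
Of the 9 p53-induced microRNA genes listed, 8 were named on the array, and MIR194-2 was the 1 above the intensity limit.

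**Figure D1:**
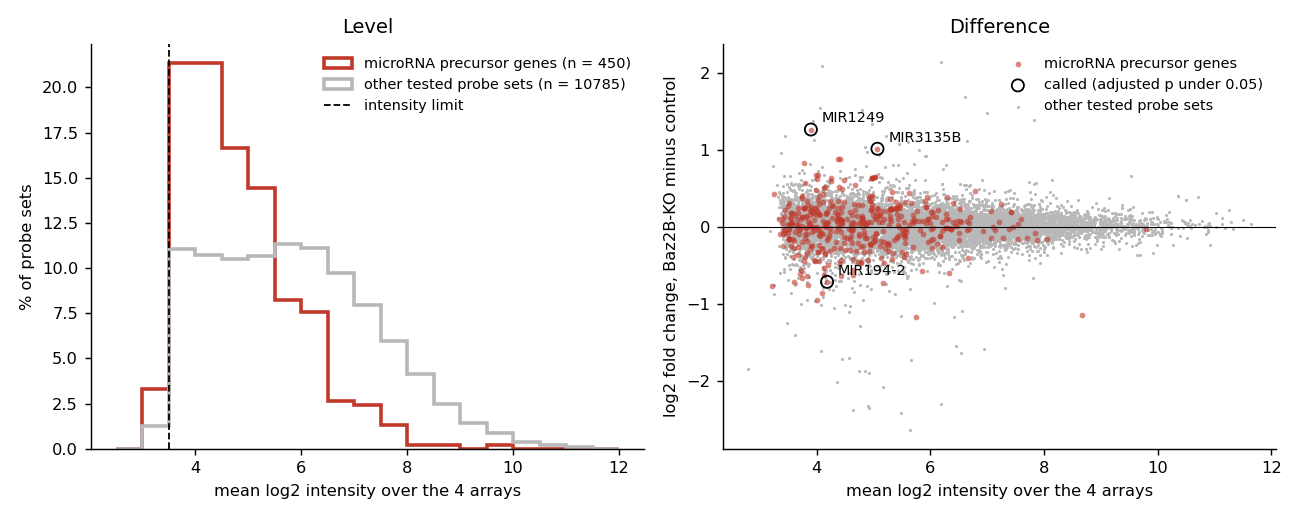
The left panel plots the mean log2 intensity over the 4 arrays as a share of probe sets, for the 450 microRNA precursor probe sets and the 10785 other retained probe sets, with the limit of 3.5 as a dashed line. The right panel plots the log2 fold change, Baz2B-KO minus control, against the same level, with the 3 called members circled. The members lie mostly below a level of 6, and most of their differences lie within the cloud of the other probe sets.

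Beyond the calls, the largest differences among members whose Baz2B-KO arrays were both on one side of both control arrays did not pass the test. MIR4521 gave 4.995 and 5.34 in Baz2B-KO, against 5.95 and 6.74 in the control, a log2 difference of -1.18 (SE 0.247, limma adjusted p = 0.136). MIR3143, the second brightest of the members, gave 8.09 and 8.08 in Baz2B-KO, against 8.93 and 9.54 in the control, a difference of -1.15 (SE 0.192, adjusted p = 0.0618). In both genes the Baz2B-KO arrays were lower, and the 2 control arrays lay further from each other than the 2 Baz2B-KO arrays did. Both hairpins lie in no other annotated gene.

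MIR497, a gene of the miR-15 family, gave 3.31 and 3.16 in Baz2B-KO, against 3.90 and 4.01 in the control. Here both Baz2B-KO arrays were under the limit and both control arrays above it, so that the gene was retained through the control alone. The difference was -0.71 (SE 0.117, limma adjusted p = 0.0563). MIR3163 gave 3.89 and 3.17 in Baz2B-KO, against 4.24 and 4.71 in the control (-0.95, adjusted p = 0.247). MIR563 gave 3.64 and 3.30 in Baz2B-KO, against 4.43 and 4.03 in the control (-0.76, adjusted p = 0.171). Neither pair overlapped, and in both genes 1 Baz2B-KO array was below the limit. MIR3115 gave 2.57 and 3.09 in Baz2B-KO, against 3.70 and 3.51 in the control (-0.77, adjusted p = 0.176), with both Baz2B-KO arrays below the limit. The differences of MIR4504, MIR3671, MIR4295 and MIR1299 lay between -0.66 and -0.60, the 2 probe sets of MIR3671 at -0.63 and -0.62.

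Among the positive differences, MIR3928 gave 4.84 and 4.87 in Baz2B-KO, against 3.78 and 4.18 in the control, a log2 difference of 0.88 (limma adjusted p = 0.0661). MIR328, a microRNA gene on the strand opposite to ELMO3, gave 5.35 and 5.36 in Baz2B-KO, against 4.62 and 4.80 in the control, a difference of 0.64 (adjusted p = 0.0801). In these genes the Baz2B-KO arrays were nearly equal and stood above both control arrays. MIR3147 had differences of 0.83 (adjusted p = 0.0868) and 0.61 (adjusted p = 0.152) on its 2 probe sets, and neither was called. On the first of them both control arrays were under the limit, so that it was retained through Baz2B-KO alone. MIR4267 had 4.29 and 4.36 in Baz2B-KO on its dimmer probe set, against 3.75 and 3.65 in the control (0.62, adjusted p = 0.0801). Its brighter probe set had 4.68 and 4.96 in Baz2B-KO, against 4.49 and 3.39 in the control (0.88, adjusted p = 0.423). The arrays did not overlap on either, but the 2 control arrays of the brighter probe set were 1 log2 unit apart or more. MIR4717, MIR4635 and MIR4725 differed by 0.68, 0.67 and 0.64, with adjusted p of 0.460, 0.304 and 0.356.

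**Figure D2:**
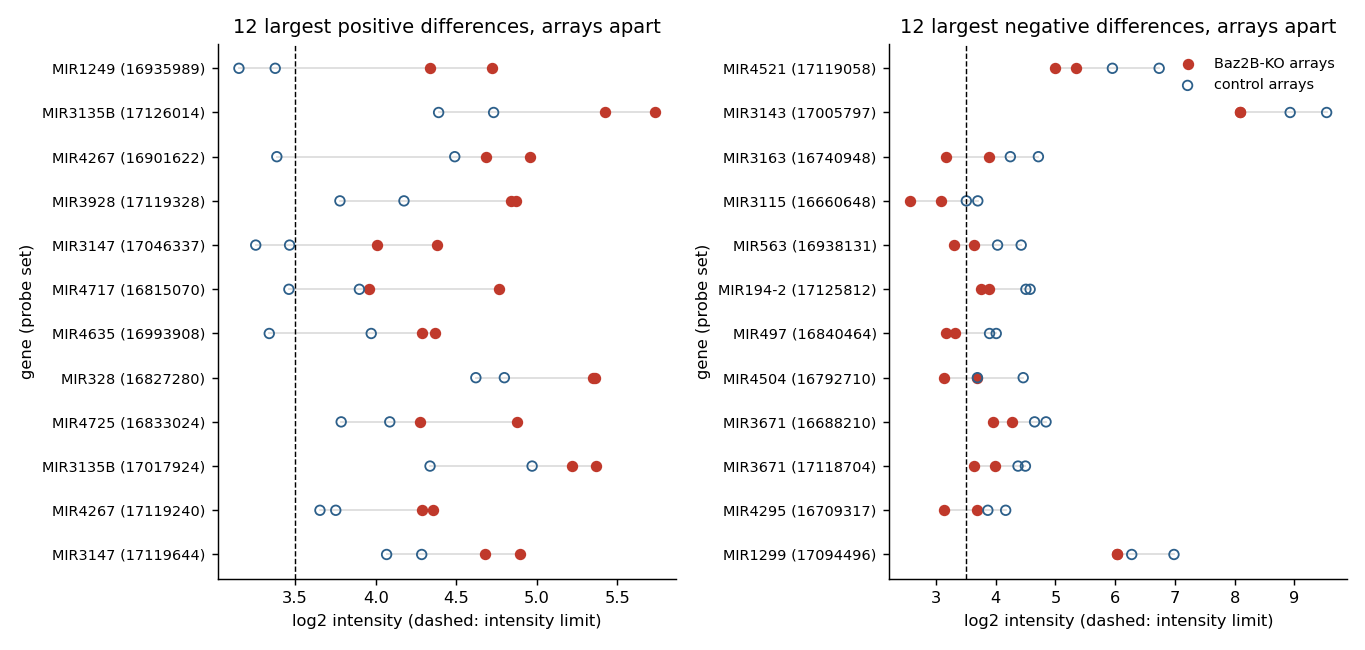
Each row is a probe set, with the log2 intensity of the 2 Baz2B-KO arrays (filled) and the 2 control arrays (open), and the dashed line marks the limit of 3.5. The left panel holds the 12 largest positive differences and the right panel the 12 largest negative ones among members whose groups did not overlap, and identical rows of 1 gene are drawn once. MIR1249 and 1 probe set of MIR3147 have both control arrays under the limit, and MIR497 and MIR3115 have both Baz2B-KO arrays under it.

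The members were dimmer and noisier than the other retained probe sets. Their median level was 4.64, with quartiles of 4.01 and 5.42 and a range of 3.22 to 9.80, against 5.70 over all retained probe sets. The median member intensity was 4.65 and 4.68 on the Baz2B-KO arrays, against 4.63 and 4.65 on the control arrays, so that the set as a whole had no shift over 0.1 between arrays. The median absolute difference within a pair of arrays was 0.186 for the members in Baz2B-KO and 0.225 in the control. Over all retained probe sets it was 0.115 in Baz2B-KO and 0.148 in the control. Across the members the Baz2B-KO arrays correlated with r = 0.956, the control arrays with r = 0.940 and arrays of different lines with r between 0.924 and 0.946, so that a control array was about as near to a Baz2B-KO array as to the other control array.

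More members than other probe sets had differences of intermediate size. A log2 difference beyond 0.5 in either direction was found for 43 members (9.56%), against 294 of all retained probe sets (2.62%) and 4.10% of the 2802 other probe sets whose mean was below the members' median. At an unadjusted p under 0.05 there were 77 members (17.1%), against 9.85% of all retained probe sets and 14.8% of those 2802. Both Baz2B-KO arrays were above both control arrays for 102 members (22.7%), against 21.9% of all retained probe sets and 27.1% of those 2802. Both were below them for 62 members (13.8%), against 15.9% of all retained probe sets and 14.4% of those 2802. The groups overlapped for the other 286 members. With identical rows counted once, Baz2B-KO was above control for 88 of 416 (21.2%) and below it for 62 (14.9%).

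The intensity limit itself selects for differences in some members. All of the arrays were above it for 382 members. Another 23 had both Baz2B-KO arrays and at most 1 control array above it, and 25 had both control arrays and at most 1 Baz2B-KO array above it. Of the 9 members above the limit in 1 line only, 5 in Baz2B-KO and 4 in the control, 8 were not called. Just inside the limit, by their second-highest array, were MIR3156-3 (3.502), MIR3179-1 (3.503) and MIR3115 (3.507), and just outside it MIR548Y (3.492), MIR548A2 (3.483) and MIR302B (3.466).

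Of the 8 brightest members, 7 had log2 differences no larger than 0.18 in size, and MIR3143, given above at -1.15, was the exception. MIR4737 gave 9.68 and 9.90 in Baz2B-KO, against 9.71 and 9.93 in the control, a log2 difference of -0.03. MIR5047, MIR2909, MIR4442, MIR3907, MIR663B and MIR3619 differed by -0.15, -0.18, -0.08, -0.14, 0.10 and -0.16. None of the 8 passed the test, and apart from MIR663B and MIR3143 their arrays overlapped between the lines. Brightness also depends on each probe's affinity, so that the order of these levels is not an order of transcript amounts.

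Some members are counted more than once on the array. The 450 probe sets hold 416 distinct rows of values, and 17 groups of identical rows cover 51 probe sets, each within a single gene. Of the genes, 329 had 1 probe set and 49 several. Different rows of 1 gene could disagree: of 37 genes with several distinct rows, 7 had differences of both signs (MIR3130-1, MIR338, MIR3689F, MIR3179-1, MIR4730, MIR486-1 and MIR548I1). For MIR3130-1, 1 probe set differed by -0.43 and the other by 0.35. For MIR338, whose hairpin product is abundant in the nervous system, the values were -0.20 and 0.38. None of these was called.

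The hairpins above the limit were richer in G and C than those below it. The median GC content was 58.2% for the members and 44.6% for the microRNA genes under the limit. With the 874 genes that have a hairpin in the table split by GC content into 4 bins of nearly equal size, 7.31% were retained in the lowest bin (16 of 219), 17.0% in the second (37 of 218), 39.4% in the third (86 of 218) and 77.6% in the highest (170 of 219). Across the 309 members with a hairpin, GC content correlated with the level at r = 0.222 (Spearman's rho 0.254), a description over genes that share the same 4 arrays. A probe richer in G and C binds more strongly, and how far that sets the levels was not tested. Hairpin length, between 50 and 153 bases with a median of 82, had r = -0.07 with the level.

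GC content also went with the direction of the difference. Across the same 309 members it correlated with the log2 fold change at r = 0.278 (rho 0.233). With the members split likewise, in the bin of lowest GC content (27.3% to 51.1%, 78 genes) the median difference was -0.09, and 27 genes were above 0. There both Baz2B-KO arrays were above both control arrays for 7 genes and below them for 18. In the other bins, with GC content going up, the median difference was 0.06, 0.05 and 0.06, with 44, 46 and 48 of 77 genes above 0. In each of these more genes had Baz2B-KO above control than below it, 16 against 9, 23 against 9 and 15 against 7. All retained probe sets leaned the same way, with 21.9% above and 15.9% below. The 7 genes with a hairpin among the largest positive differences had a GC content of 57.0% to 68.0%, and the 9 among the largest negative differences had 27.3% to 67.0%, with medians of 63.8% and 44.3%. The part of base composition in these differences was not tested.

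**Figure D3:**
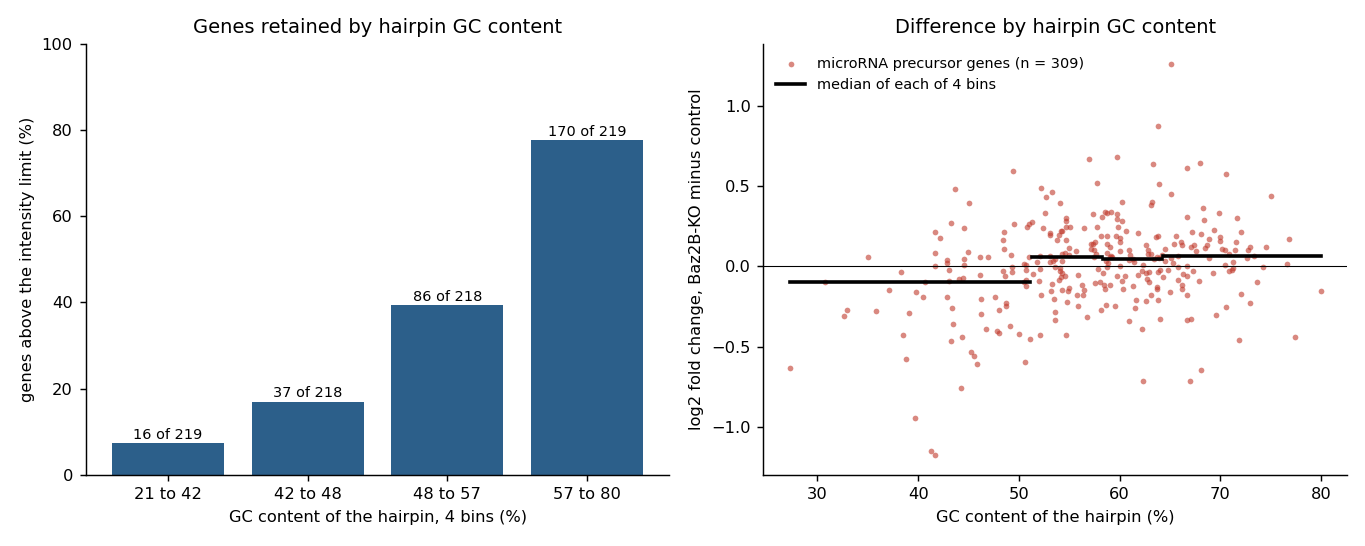
The left panel shows the percent of microRNA genes above the intensity limit in each of 4 bins of hairpin GC content, with the counts over the bars, which climb to 77.6% in the highest bin against 7.31% in the lowest. The right panel plots the log2 fold change of 309 members, Baz2B-KO minus control, against hairpin GC content, with the median of each of 4 bins of members as a bar at -0.09, 0.06, 0.05 and 0.06.

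Of the 309 members placed on the genome, 192 lie inside a longer gene on its strand, 29 inside a gene on the opposite strand only and 88 in no other gene. Of those on a gene's strand, both Baz2B-KO arrays were above both control arrays for 30 and below them for 29. Of those in no gene the counts were 24 and 10. The shares were 21.9% and 15.9% over all retained probe sets. They were 27.1% and 14.4% among the 2802 other probe sets whose mean was below the members' median. A nested member could be set beside a retained host in 106 cases, with 96 hosts, none of which was called. Member and host were on the same side of 0 in 51 of the 106. Both had arrays that did not overlap in 12, of which 6 went in the same direction and 6 in opposite directions. The log2 fold changes of member and host had r = 0.118 and rho = 0.016 across the pairs, and r = 0.110 with each host counted once, a weak relation given as a description.

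MIR1224, nested in VWA5B2, was among the pairs that went the same way, as was MIR4295 in VTI1A (-0.61 and -0.26). MIR1224 gave 4.37 and 3.81 in Baz2B-KO, against 3.43 and 3.59 in the control (0.58), and its host 4.90 and 4.54 in Baz2B-KO, against 4.32 and 4.34 in the control (0.39). In MIR1224 and VWA5B2 the Baz2B-KO arrays were higher, the first of them most. Other nested genes stood apart from their hosts. MIR3163 differed by -0.95 and its host PC, which encodes pyruvate carboxylase, by 0.11. The brighter probe set of MIR3671 differed by -0.63 and its host JAK1, a cytokine receptor kinase, by -0.02. For MIR3666 the host FOXP2, a transcription factor, differed by 0.70 (limma adjusted p = 0.277), and the microRNA gene by -0.06. MIR25, MIR93 and MIR106B, which share the replication gene MCM7 as a host, differed by 0.08, -0.14 and 0.04, and MCM7 by 0.09.

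**Figure D4:**
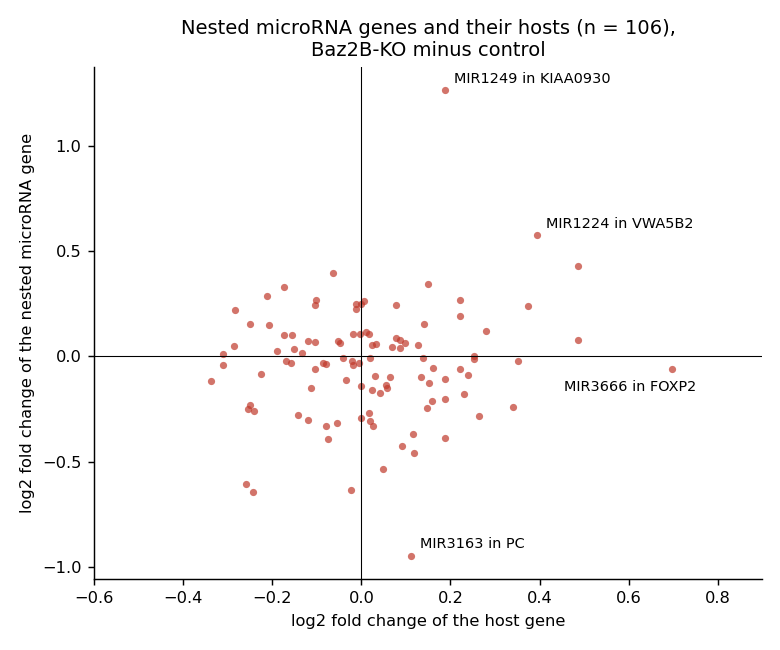
Each point is a microRNA precursor gene nested in a retained host gene on the same strand (106 pairs), with the host's log2 fold change, Baz2B-KO minus control, on the horizontal axis and that of the microRNA gene on the vertical axis. The points spread over all quadrants, with 51 pairs on the same side of 0, and MIR1249 at 1.27 stands over a host at 0.19.

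The chromosome 14q32 cluster is a large group of imprinted microRNA genes, which are expressed from the maternal chromosome together with the long noncoding RNA MEG3, while DLK1 and RTL1 beside them are expressed from the paternal one. Of its 53 listed genes 52 were named on the array and 12 were retained. Of these, 10 had differences above 0, both Baz2B-KO arrays were above both control arrays for 6 and below them for none, and none was called, at a median difference of 0.15. That is 6 of 12 where 21.9% of all retained probe sets stood apart in that direction. Among the 2802 other probe sets whose mean was below the members' median the share was 27.1%. Clustered genes can share a primary transcript, so the 12 are not separate observations. MIR665 gave 4.68 and 4.63 in Baz2B-KO, against 4.17 and 4.12 in the control, a log2 difference of 0.51 (SE 0.108, limma adjusted p = 0.136). MIR134, a brain-enriched microRNA gene that restrains dendritic spine growth in rodents, gave 5.16 and 5.21 in Baz2B-KO, against 4.75 and 4.81 in the control (0.40, adjusted p = 0.261). In both genes the arrays of a line nearly coincided and the lines were apart.

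MIR2392 gave 6.56 and 6.43 in Baz2B-KO, against 6.08 and 6.14 in the control (0.39, limma adjusted p = 0.303). MIR127, which lies opposite RTL1 and is complementary to it, gave 6.02 and 6.12 in Baz2B-KO, against 5.69 and 5.79 in the control (0.33, adjusted p = 0.389). MIR431 gave 3.95 and 4.04 in Baz2B-KO, against 3.52 and 3.81 in the control (0.33). With MIR668, at 0.06, these are the 6 whose groups did not overlap. MIR654, MIR412, MIR541 and MIR770 differed by 0.19, 0.11, 0.04 and 0.02, MIR494 by -0.04 and MIR539 by -0.10, with overlapping arrays. The hairpins of 11 of these genes had a median GC content of 58.8%, near that of all members.

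Beside the cluster, DLK1, which encodes a membrane ligand related to Delta, gave 5.73 and 5.55 in Baz2B-KO, against 4.13 and 4.47 in the control. It was called higher, with a log2 fold change of 1.34 (SE 0.146, limma adjusted p = 0.0100). RTL1 gave 4.88 and 4.83 in Baz2B-KO, against 4.88 and 4.98 in the control (-0.08). The noncoding gene MEG9 gave 4.74 and 4.40 in Baz2B-KO, against 4.75 and 4.66 in the control (-0.14). Thus 1 of these 3 neighbours was called, where 0.668% of all retained probe sets were, and the 12 microRNA genes were not. MEG3 had no retained named probe set.

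**Figure D5:**
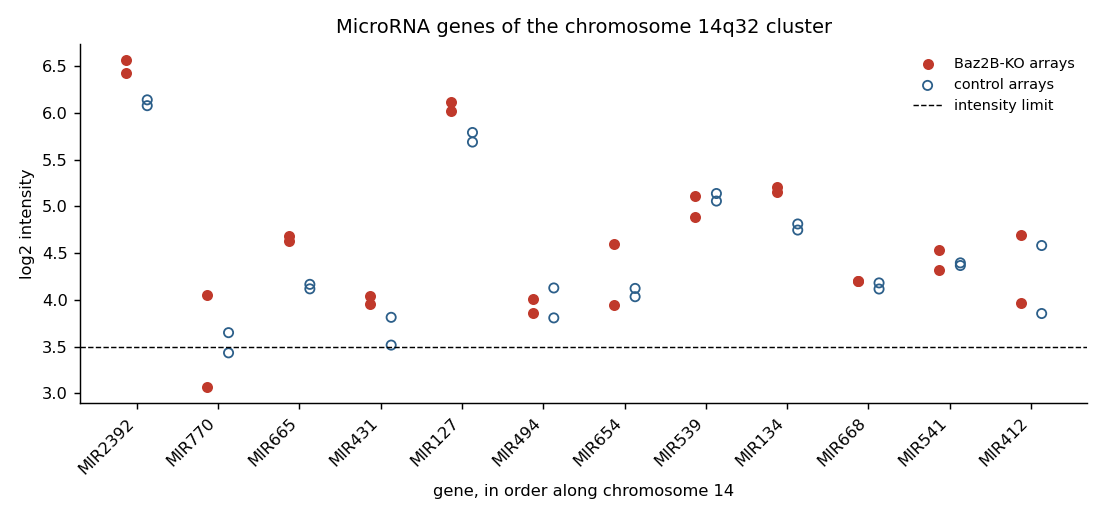
The log2 intensity of the 12 retained microRNA genes of the chromosome 14q32 cluster is plotted for each array, in their order along the chromosome, with Baz2B-KO arrays filled and to the left and control arrays open and to the right, and the limit of 3.5 as a dashed line. MIR2392, MIR665, MIR431, MIR127, MIR134 and MIR668 have both Baz2B-KO arrays above both control arrays, and the others overlap.

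Among the 309 members placed by a hairpin, each at its brightest probe set, 14 clusters lay within 10000 bases on 1 strand. They hold 36 members, counting the 2 stretches of 14q32. In 8 of the 14 every placed member was on the same side of 0. These include MIR25 and MIR106B, while MIR93 in the same host had no hairpin in the table and differed by -0.14. They also include the cluster of MIR338, whose other probe set differed by 0.38. In MIR3677 and MIR4717 (0.30 and 0.68), in MIR4725 and MIR365B (0.64 and 0.40) and in MIR503 and MIR424 (0.34 and 0.06) both genes had Baz2B-KO arrays above the control arrays. The groups stood apart in that direction for 21.9% of all retained probe sets. For the 2802 other probe sets whose mean was below the members' median the share was 27.1%. MIR24-2 and MIR27A, which come from 1 primary transcript, went in opposite directions, with both groups apart in each gene and extremes of -0.22 and 0.28. None of the clustered genes was called.

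The 440 mature sequences hold 409 distinct seeds, of which 24 are shared by several members. Genes with the same seed AGUGCAA, printed above, had unlike differences. On its brighter probe set MIR130B gave 5.75 and 5.35 in Baz2B-KO, against 5.47 and 4.97 in the control (0.33), with overlapping arrays. Its dimmer probe set gave 4.72 and 4.66 in Baz2B-KO, against 4.58 and 4.42 in the control (0.19), with Baz2B-KO higher and the arrays apart. MIR3666 gave 3.58 and 3.60 in Baz2B-KO, against 3.504 and 3.802 in the control (-0.06). MIR4295 gave 3.13 and 3.68 in Baz2B-KO, against 4.17 and 3.87 in the control (-0.61), and MIR454 differed by -0.29. Besides the dimmer probe set of MIR130B, only MIR4295 had arrays that did not overlap in this family, and none of its genes was called.

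In the family with the seed AGCAGCA, the miR-15 family, MIR15A and MIR424 had small positive differences beside MIR497 at -0.71. MIR15A gave 4.18 and 3.33 in Baz2B-KO, against 3.82 and 3.33 in the control (0.18), with overlapping arrays. MIR424 gave 4.83 and 4.84 in Baz2B-KO, against 4.78 and 4.77 in the control (0.06). In the miR-181 family, with the seed ACAUUCA, all 4 members were above 0. MIR181B1, MIR181C, MIR181D and MIR4262 differed by 0.05, 0.09, 0.24 and 0.14, and the arrays of MIR181D and MIR4262 were apart. Among the genes with the seed CUGGACU, MIR422A gave 4.57 and 4.26 in Baz2B-KO, against 3.89 and 3.89 in the control (0.52, limma adjusted p = 0.223), and MIR378H and MIR378I differed by 0.03 and -0.02.

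Most microRNA genes that mark a tissue or a developmental stage were under the limit, as were most microRNA genes of any kind (378 of 1062 genes retained). Of 45 listed genes of the chromosome 19 cluster, which is expressed mainly in placenta, 42 were named and 3 retained. MIR518B gave 4.65 and 4.43 in Baz2B-KO, against 3.87 and 4.02 in the control, a log2 difference of 0.60 (limma adjusted p = 0.140). MIR521-2 gave 4.30 and 4.17 in Baz2B-KO, against 3.76 and 3.74 in the control (0.49, adjusted p = 0.171). Both stood apart with Baz2B-KO higher, neither was called, and the third gene of the cluster, MIR512-2, was at -0.01.

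Of 9 microRNA genes of embryonic stem cells 8 were named and 2 retained, with opposite signs. MIR371A gave 4.71 and 4.67 in Baz2B-KO on its brighter probe set, against 4.14 and 4.25 in the control (0.49, limma adjusted p = 0.166). Its dimmer probe set gave 3.47 and 4.11 in Baz2B-KO, against 3.49 and 3.58 in the control (0.25, adjusted p = 0.799), with overlapping arrays. MIR302C gave 4.47 and 4.25 in Baz2B-KO, against 4.48 and 5.37 in the control (-0.56, adjusted p = 0.564), where the lower control array nearly met the higher Baz2B-KO array. Of 22 genes of the Xq27 cluster, which is expressed in testis, 19 were named and 2 retained. MIR513A2 gave 4.67 and 4.43 in Baz2B-KO, against 5.07 and 4.97 in the control (-0.47, adjusted p = 0.258), and MIR891A differed by -0.02. The groups of MIR513A2 did not overlap.

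Of 14 microRNA genes of blood lineages, all of them named, 2 were retained. MIR150, a gene of mature lymphocytes, gave 4.21 and 4.59 in Baz2B-KO, against 4.16 and 3.98 in the control (0.34, limma adjusted p = 0.543), and MIR181B1 differed by 0.05. Of 6 epithelial microRNA genes, also all named, MIR200B alone was retained, with a difference of 0.10. Of 20 muscle and neural genes 17 were named and 3 were retained, MIR124-2, MIR9-1 and MIR212, at 0.42, -0.19 and -0.10. Of 15 genes of the miR-17 family clusters 9 were named, and the 3 retained were those in MCM7. None of the genes in these lists was called. In RNA from whole cultures, fewer cells that express a gene and less RNA per cell cannot be told apart.

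Among the genes that make and guide microRNAs, 14 of 26 listed had a named probe set and all 14 were retained. Of these, 1 was called, lower, and 13 were not, at a median log2 difference of 0.08. Over all retained probe sets 0.668% were called, and the list was chosen with earlier results of these data known. The called gene of the list was LIN28A, an RNA-binding protein of stem cells that blocks the maturation of let-7 precursors. It gave 4.58 and 4.04 in Baz2B-KO, against 6.97 and 6.95 in the control, a difference of -2.65 (SE 0.177, limma adjusted p = 0.00104). The Baz2B-KO arrays were far below the control arrays. Its paralogue LIN28B gave 7.37 and 7.19 in Baz2B-KO, against 7.59 and 7.51 in the control (-0.27, adjusted p = 0.528), apart in the same direction and not called.

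DGCR8, the partner of Drosha, gave 6.47 and 6.48 in Baz2B-KO, against 6.27 and 6.16 in the control (0.26, limma adjusted p = 0.511). The differences of the remaining factors were smaller. XPO5, which exports the precursors, differed by 0.15, and TARBP2, the partner of Dicer, by 0.04. DIS3L2, which degrades uridylated let-7 precursors, differed by 0.19. TNRC6A, TNRC6B and TNRC6C, the silencing partners of Argonaute, differed by 0.11, 0.10 and 0.13. The processing cofactors DDX5, DDX17, SRSF3 and KHSRP differed by 0.00, 0.03, 0.06 and 0.11, and HNRNPA1, which binds some hairpins, by -0.22. None of these was called.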

How the data were processed

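Both lines were measured on 2 arrays each. The table deposited by the authors gives log2 intensities of 53617 probe sets on each array. They come from RMA in the package oligo, which corrects the background, applies quantile normalization and summarises each probe set. Their versions are not given in the sources used here. Arrays have no read depth, and their number limits the precision. No source states whether arrays of 1 line stem from separate cultures, and p-values measure the spread between arrays, which may be technical.

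Genes were named from the platform annotation (16098 probe sets with 1 gene, 37519 unnamed here). Probe sets above 3.5 on at least 2 arrays were tested with lmFit and eBayes of limma 3.58.1 in R 4.3.3, Baz2B-KO minus control, with no covariates and Benjamini-Hochberg adjustment over 11235 probe sets. The script was tested on simulated data. Placement, hosts and sequences came from RefSeq tables of GRCh38.p14, and the array's own build is not given in the sources used here. Python 3.11.15, pandas 2.3.3, scipy 1.17.1 and matplotlib 3.10.9 were also used.

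Members and gene lists were chosen with earlier results of these data known. Genes named were MIR1249, the called members, the 12 largest differences in each direction with groups apart, the 8 brightest, up to 4 members of each list by size of difference, 3 on each side of the limit, those whose probe sets differ in sign, and the retained biogenesis genes. Other 14q32 genes, DLK1 and its neighbours, hosts, clusters and seed families were named after their values were seen. Alternatives were other limits, priors and normalizations, all retained probe sets, gene means, a replicate block and each array left out.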

Additional observations from a re-analysis of the deposited data

How the results depend on the processing

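Over all probe sets 75 were called, with 2 members higher and 1 lower. Counts for all, for members higher and for members lower were 26, 0 and 0 over all retained probe sets, named or not; 77, 2 and 2 with a limit of 4; 64, 1 and 1 with a limit of 3; 41, 0 and 1 with no limit; 78, 2 and 1 with an intensity trend in the prior; 80, 2 and 3 with a robust prior; 79, 1 and 2 after a second quantile normalization; 84, 1 and 2 after cyclic loess; 93, 3 and 3 with arrays centred on the members' median; and 74, 2 and 2 over gene means. Alternatives chosen after seeing the data gave 50, 0 and 0 with the limit met in both lines, a rule that removes MIR1249, and 77, 2 and 1 with identical rows counted once.

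Leaving out 1 array gave 0 to 42 calls in all, 0 or 1 member higher and 0 members lower. Without the first control array no probe set was called by limma, with 82 members and 935 probe sets at an unadjusted p under 0.05. Without the second control array there was again no call, with 99 and 1419. Without the first Baz2B-KO array 38 were called, with MIR1249 still among them, and without the second 42. A lone array is then assumed to vary like the other line.

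MIR1249 had an adjusted p of 0.203 over all retained probe sets, named or not, 0.0507 with no limit, 0.198 and 0.224 without the first and second control array (log2 differences 1.38 and 1.15), and 0.0632 without the second Baz2B-KO array (1.07). The same-numbered arrays deviated together with r = 0.158 over all tested probe sets and -0.0065 over members, 2 pairs only, and nothing ties the numbers to a batch, so they were not taken as pairs. With the replicate number as a block 38 probe sets were called, 0 members higher and 0 lower, and MIR1249 had an adjusted p of 0.0790. The causes were not tested.

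Signs of small differences turned when an array was left out. Over these fits the log2 difference ran between -0.143 and 0.079 for MIR4737, -0.449 and 0.096 for MIR2909, -0.243 and 0.086 for MIR4442, -0.364 and 0.087 for MIR3907, -0.325 and 0.0094 for MIR3619, -0.072 and 0.170 for MIR181B1, -0.149 and 0.130 for MIR512-2, -0.022 and 0.214 for MIR200B, -0.091 and 0.251 for MIR25 and -0.542 and 0.493 for MIR891A. Of the other comparisons of a named member with its alternative, 796 kept direction and call, 28 lost the call and 12 gained one.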
